A study of Homo sapiens with 6 samples.

Results

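Replication-dependent histone genes encode the linker histone H1 and the core histones H2A, H2B, H3 and H4 that package newly made DNA. They were taken from the deposited gene table by name: H1-1 to H1-6, and any name made of H2AC, H2BC, H3C or H4C followed only by digits. The rule used no measured value, but the members were chosen with earlier results of these data known. It found 61 of the 31853 genes in the table: 6 for H1, 15 for H2A, 15 for H2B, 12 for H3 and 13 for H4. Of these, 50 lie on chromosome 6 and 11 on chromosome 1 (GRCh38).

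The study compared Mon-Mac-6 cells, a cultured human monocytic leukaemia line, after 48 h with 500 nM WD6305 or with DMSO, the vehicle. Its title names WD6305 as a PROTAC against METTL3, the enzyme of the complex that places N6-methyladenosine on messenger RNA. PROTACs are bifunctional molecules that tether their target to a ubiquitin ligase for degradation. Each group had 3 poly(A) RNA-seq libraries of the same line, with no genetic change recorded in the labels, and the labels do not say whether the libraries came from separate cultures. P-values therefore measure only the spread between these libraries, which may be technical.

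The messages of these genes differ from other messenger RNA. As background, in dividing cells they are made in S phase, carry no intron, and end just after a short stem-loop in place of a poly(A) tail. SLBP, the stem-loop binding protein, holds this end during processing, export and translation, and NPAT drives transcription of the gene clusters. Some members can also be read past the stem-loop to a poly(A) signal downstream, which yields a polyadenylated message. The libraries here were made from RNA selected on oligo(dT) beads, so each value below is the level of a message in the poly(A) fraction, and the total level of histone messages was not measured.

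The stem-loop is printed for 6 tested members because it is the end this gene class is known for, and because annotated transcripts of these members run beyond it. Capitals mark the 16 bases of the stem-loop, with 5 flanking bases on each side, 5′ to 3′, read from the GENCODE 29 transcripts (GRCh38).
H2AC6: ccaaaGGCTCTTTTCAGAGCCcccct
H2BC21: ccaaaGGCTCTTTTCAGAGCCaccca
H3C10: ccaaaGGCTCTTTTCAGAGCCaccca
H2AC18: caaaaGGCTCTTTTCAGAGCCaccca
H4C8: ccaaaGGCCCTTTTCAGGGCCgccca
H2AC11: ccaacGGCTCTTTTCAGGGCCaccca
H2AC6 transcripts ran on for 1114 or 1128 bases after the stem-loop, the H2BC21 transcript for 1729, the H3C10 transcript for 769 and the H2AC11 transcript for 1761. The H2AC18 transcript ran on for 35 bases. H4C8 had transcripts that ended 18, 630 or 1655 bases after it. A search for GGCNCTTTTCAGNGCC on the transcript strand found a stem-loop in 20 members. It read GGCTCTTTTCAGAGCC in 15 members, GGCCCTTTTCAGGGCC in 4 and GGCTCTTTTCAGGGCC in 1. The transcript models of 29 members hold the coding sequence alone, so their ends could not be read; H2BC12, H1-2 and H2BC17 are among them.

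Deposited counts summed to between 64525948 and 71155346 per library. In each library 1071 to 1176 genes had a count of 4, against 553 to 636 with 3 and 357 to 380 with 5. The number of sequenced fragments may therefore be lower than the counts. The myeloid markers were all detected (8 of 8 with a mean of at least 1 FPKM), with a summed level of 3093 to 3321 FPKM in DMSO and 5188 to 5974 FPKM in WD6305, most of it LYZ. Markers of B cells summed to at most 0.71 FPKM in any library and erythroid markers to at most 0.39. Of 9 epithelial and skin markers, 8 were in the table; they summed to between 43.2 and 56.0 FPKM in 4 libraries but to 3.26 in DMSO 3 and 2.72 in WD6305 1, and KRT2 was at 0. Fibroblast markers reached 4.10 FPKM in WD6305 1 against 0.13 to 0.27 elsewhere. The part of these markers in the histone results was not tested. The members called below were also compared without DMSO 3 and WD6305 1. METTL3 RNA was 67.3 ± 2.86 CPM in DMSO and 78.0 ± 1.88 CPM in WD6305 (log2 fold change 0.21, edgeR adjusted p = 0.0218). This call was lost without DMSO 2 or any single WD6305 library (edgeR adjusted p = 0.0501 to 0.0931) and in 2 further settings. These libraries measure RNA only, so the level of METTL3 protein is not known from them.

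Summed histone messages were more abundant in the poly(A) fraction of WD6305 cells, and a subset of the genes was called higher. Of the 61 members, 42 had enough counts to be tested, and 13 of these (31.0%) were called higher and 0 lower at an adjusted p under 0.05 in the edgeR quasi-likelihood test. Over all 18138 tested genes, 12.2% were called higher and 11.2% lower, 23.4% in all. The called genes were H1-2, H2AC6, H2AC18, H2AC19, H2BC4, H2BC5, H2BC11, H2BC12, H2BC15, H2BC17, H2BC21, H3C10 and H4C8. Among them, H2AC18 and H2AC19 are near-identical copies that are counted separately. The median log2 fold change was 0.59 over the tested members and 0.00 over all tested genes, and 27 of the 42 had a positive sign. For decreases, 1 member had an unadjusted p under 0.05 in edgeR, and DESeq2 called 0 lower. More cells making a message and more message per cell cannot be told apart in these bulk samples.

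Of the tested members, 0 had passed the filter through only 1 of the groups, and 34 of the 42 stood at or above the 10-count filter level in all 6 libraries. Each of the 13 called genes was higher in all 3 WD6305 libraries than in any DMSO library. A further 3 tested members were separated in that direction without passing the test, and 1 was separated in the other direction. Over all tested genes 20.4% were separated upward and 20.3% downward, 40.8% in either direction. Without DMSO 3 and WD6305 1, 12 of the 13 calls remained. The gene that lost its call was H2BC11 (log2 fold change 0.60, edgeR adjusted p = 0.0539).

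**Figure D1:**
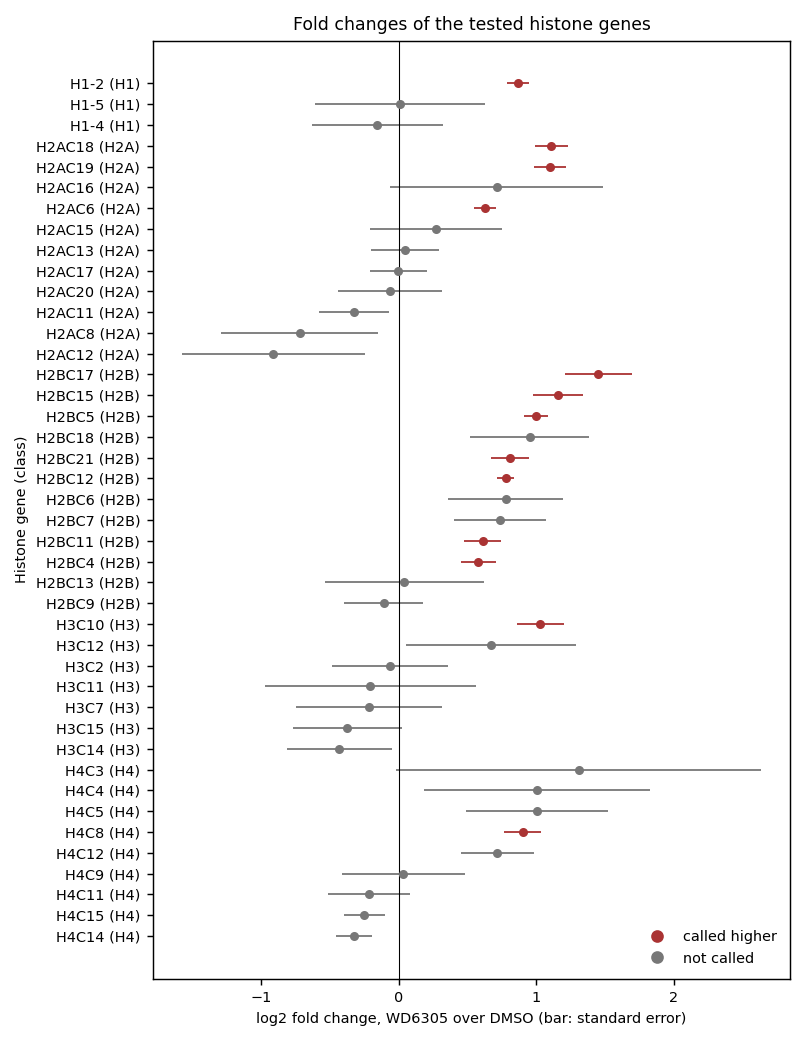
Log2 fold change of each of the 42 tested histone genes, WD6305 over DMSO (x axis), by gene and class (y axis). Points are edgeR estimates and bars standard errors; red marks the 13 genes called higher. The called genes have standard errors of 0.06 to 0.24, and the grey points with wide bars are mostly genes with few counts.

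The summed level of all 61 members was 226, 211 and 213 CPM in DMSO 1, 2 and 3 and 347, 374 and 356 CPM in WD6305 1, 2 and 3. The lowest WD6305 library was thus far above the highest DMSO library, and the ratio of the means was 1.65 (217 ± 8.18 against 359 ± 13.8 CPM, mean ± SD, n = 3 per group). Members took 0.0213% to 0.0226% of all counts in DMSO libraries and 0.0345% to 0.0369% in WD6305 libraries. H2BC12 alone held 33.9% to 36.8% of the members' counts, and the ratio without it was 1.62. The 13 called genes summed to 188 ± 7.31 CPM in DMSO and 330 ± 13.9 CPM in WD6305. The 29 tested genes that were not called summed to 27.9 ± 2.21 and 27.5 ± 0.603 CPM, and their groups overlapped. Because the genes were split by calls made on these same libraries, the contrast between these sums is no separate evidence.

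By class, the mean summed CPM in WD6305 was 1.80 times the DMSO mean for H1, 1.73 times for H2B, 1.62 times for H2A, 1.34 times for H3 and 1.12 times for H4. On this scale the WD6305 libraries lay above the DMSO libraries in each class, for H4 barely so: the lowest WD6305 library was at 16.8 CPM and the highest DMSO library at 16.7 CPM. The H4 sums of unscaled counts overlapped, at 1022 to 1189 in DMSO and 1119 to 1259 in WD6305. The class medians of the log2 fold change were 0.01 for H1, 0.05 for H2A, 0.78 for H2B, -0.21 for H3 and 0.72 for H4. For H1 and H2A the sums were higher in WD6305 while the medians were near 0, and for H3 the median was negative. H1-2 alone averaged 37.2 of the 38.0 CPM of the H1 sum in WD6305. On the FPKM scale, which divides by length, the H3 sums overlapped between the groups, with a ratio of 1.12, and the H4 ratio was 1.20.

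**Figure D2:**
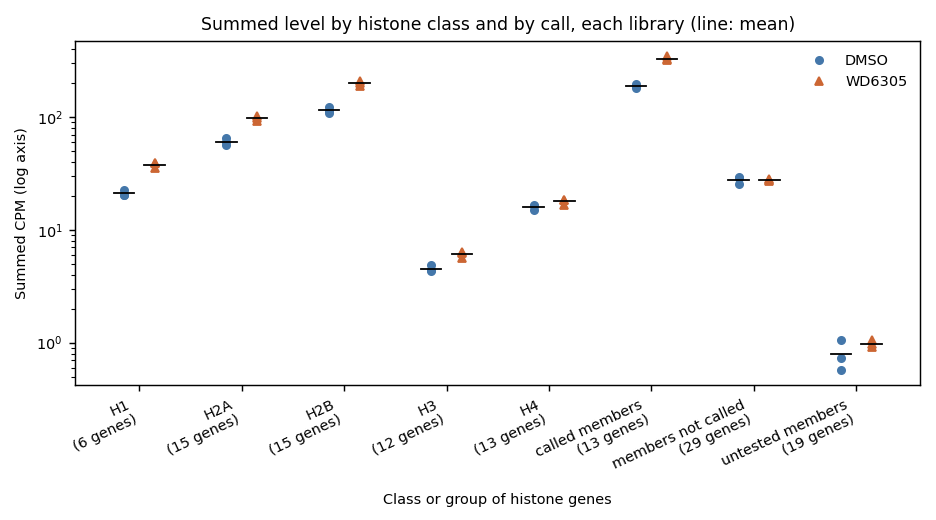
Summed CPM (log axis) of the histone genes by class and by test outcome, with each of the 3 DMSO and 3 WD6305 libraries as a point and the group mean as a line. The 29 tested genes not called and the 19 untested genes overlap between the groups, and the 13 called genes go from 188 to 330 CPM. Called and not-called genes were split by the test on these same libraries, so their contrast is no separate evidence.

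H1 is the linker histone, which binds DNA where it enters and leaves the nucleosome. Of 6 H1 genes, 3 were tested and 1 was called higher, beside 12.2% of all tested genes. H1-2 (chr6:26055740-26056470, minus strand) stood at 27.66, 25.59 and 26.29 FPKM in DMSO 1 to 3 and at 44.34, 49.92 and 48.57 FPKM in WD6305 1 to 3. The groups were wide apart, and the log2 fold change was 0.87 (SE 0.08, edgeR adjusted p = 0.000166). H1-4 and H1-5 had 19 to 52 and 8 to 15 counts per library, with log2 fold changes of -0.16 (SE 0.48) and 0.01 (SE 0.62), so a change of the size seen for H1-2 was not detectable there. H1-1, H1-3 and H1-6 had at most 12 counts in any library.

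H2B pairs with H2A in the outer part of the nucleosome core. It was the class with the most calls: 12 of 15 genes were tested, 7 were called higher, and the median log2 fold change was 0.78. Of all tested genes, 12.2% were called higher. H2BC12 (chr6:27146361-27146855, minus strand) had the highest level of all members, at 153.30, 143.14 and 141.33 FPKM in DMSO and 231.71, 261.55 and 245.96 FPKM in WD6305. Its log2 fold change was 0.78 (SE 0.06, edgeR adjusted p = 0.000102), and no library of either group came near the other group.

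H2BC5 (chr6:26158122-26171349, plus strand) was at 16.09, 15.36 and 14.12 FPKM in DMSO and 28.22, 31.43 and 30.16 FPKM in WD6305, a log2 fold change of 1.00 (SE 0.09, edgeR adjusted p = 0.000142). H2BC4 (chr6:26114873-26123926, minus strand) was at 6.91, 8.06 and 7.59 FPKM and then at 9.98, 12.52 and 10.69 FPKM, a log2 fold change of 0.58 (SE 0.13, edgeR adjusted p = 0.0109). Both genes were separated between the groups, H2BC4 by the smaller gap. H2BC11 (chr6:27125897-27132750, minus strand) was at 6.21, 5.73 and 6.04 FPKM in DMSO and at 9.02, 7.60 and 10.38 FPKM in WD6305, with a log2 fold change of 0.61 (SE 0.13, edgeR adjusted p = 0.0110). WD6305 2 was its lowest WD6305 library, and this gene is the call that was lost in the 4-library comparison.

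The other called H2B genes had lower levels. H2BC17 (chr6:27893425-27893891, plus strand) had the highest fold change among the called members: 2.30, 1.43 and 1.72 FPKM in DMSO became 4.98, 4.95 and 4.96 FPKM in WD6305, a log2 fold change of 1.45 (SE 0.24, edgeR adjusted p = 0.00302). H2BC21 (chr1:149884459-149886682, minus strand) was at 2.92, 2.31 and 2.16 FPKM in DMSO and 4.29, 4.28 and 4.19 FPKM in WD6305, a log2 fold change of 0.81 (SE 0.14, edgeR adjusted p = 0.00334). The 3 WD6305 libraries lay close together for both genes. H2BC15 (chr6:27838545-27852204, plus strand) was at 0.62, 0.43 and 0.53 FPKM and then at 1.02, 1.22 and 1.25 FPKM, a log2 fold change of 1.16 (SE 0.18, edgeR adjusted p = 0.00220). It was the only called member with a mean level under 1 FPKM.

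Of the 5 tested H2B genes that were not called, H2BC7 and H2BC18 were separated upward. H2BC7 had 0.77, 1.22 and 1.40 FPKM in DMSO and 2.01, 1.74 and 1.81 FPKM in WD6305 (log2 fold change 0.74, SE 0.33, edgeR adjusted p = 0.152), and it passed in limma on log2 FPKM with either pseudocount (adjusted p = 0.0393 and 0.0490). H2BC18 had a log2 fold change of 0.95 (SE 0.43, edgeR adjusted p = 0.151) and 15 to 52 counts per library. Its row overlaps FCGR1A, an Fc receptor gene of monocytes on the opposite strand, by 8987 bases, and without knowledge of how strand was used their reads cannot be told apart. H2BC9 ranged from 2.57 to 5.21 FPKM in DMSO and from 2.97 to 3.91 FPKM in WD6305 (3.65, 5.21 and 2.57 against 3.91, 3.53 and 2.97), with the groups overlapping and a log2 fold change of -0.11 (SE 0.29). H2BC6 and H2BC13 had log2 fold changes of 0.78 (SE 0.42) and 0.04 (SE 0.58).

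**Figure D3:**
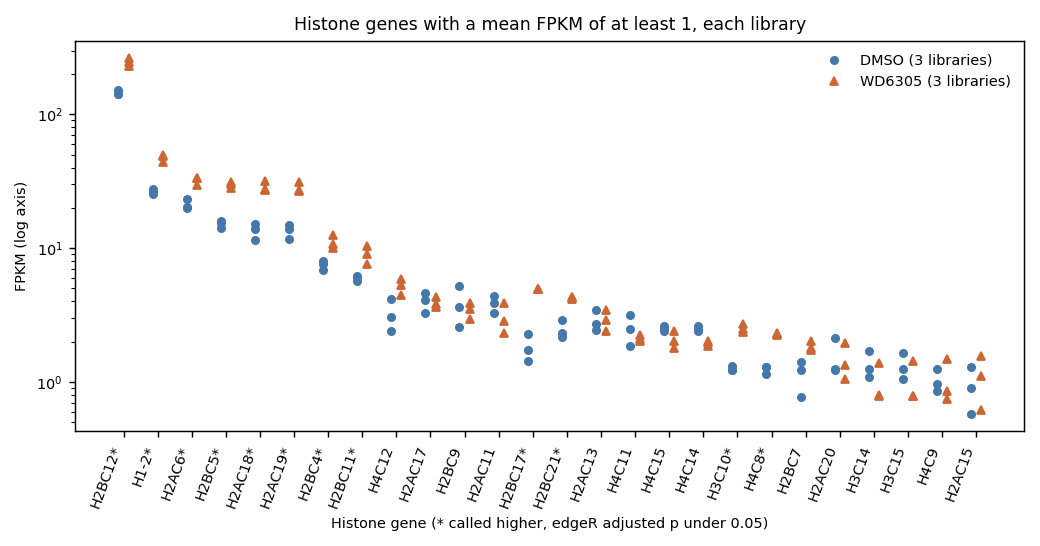
FPKM (log axis) of the 26 tested histone genes with a mean of at least 1 FPKM over the 6 libraries, in order of level, with each library as a point. The 8 genes with the highest means, from H2BC12 to H2BC11, are all called higher (asterisk), and lower down called genes stand among genes whose groups overlap.

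H2A is the partner of H2B. Of 15 H2A genes, 11 were tested, 3 were called higher, and the median log2 fold change was 0.05. The share called higher over all tested genes was 12.2%. H2AC6 (chr6:26124145-26139116, plus strand) was at 20.27, 19.96 and 23.44 FPKM in DMSO and 33.42, 33.72 and 29.45 FPKM in WD6305, a log2 fold change of 0.63 (SE 0.08, edgeR adjusted p = 0.000916), with a clear gap between the groups. H2AC18 (chr1:149842218-149842750, minus strand) was at 13.96, 11.52 and 15.23 FPKM in DMSO and 27.29, 31.63 and 27.55 FPKM in WD6305, and H2AC19 (chr1:149851061-149851594, plus strand) at 13.85, 11.73 and 14.99 and then 26.85, 31.42 and 27.34 FPKM. H2AC18 and H2AC19 are near-identical copies. Every 150-base window of the H2AC18 transcript and 96.4% of those of H2AC19 also occur in another histone transcript, so reads cannot be assigned to either copy with certainty. Summed as a single gene, they had 1122, 877 and 1148 counts in DMSO and 1984, 2458 and 2101 counts in WD6305, a log2 fold change of 1.10 (SE 0.11, edgeR adjusted p = 0.000226).

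The other H2A genes did not pass the test, and their groups overlapped. H2AC17 was at 4.59, 3.28 and 4.12 FPKM in DMSO and 3.64, 3.83 and 4.29 FPKM in WD6305, a log2 fold change of -0.00 (SE 0.21). H2AC11 was at 3.92, 4.37 and 3.29 FPKM and then 2.32, 2.84 and 3.89 FPKM (log2 fold change -0.33, SE 0.25). H2AC13 was at 2.46, 3.46 and 2.71 FPKM and then 2.92, 3.46 and 2.41 FPKM (0.05, SE 0.25). The standard errors of these 3 genes were close to that of H2BC17, at 0.24. H2AC20 was at 2.12, 1.23 and 1.24 FPKM and then 1.94, 1.05 and 1.34 FPKM (log2 fold change -0.06, SE 0.38). H2AC15 was at 0.58, 1.29 and 0.90 FPKM and then 1.11, 0.62 and 1.56 FPKM (0.27, SE 0.48). H2AC12, H2AC8 and H2AC16 had at most 44 counts in any library and log2 fold changes of -0.91 (SE 0.66), -0.72 (SE 0.57) and 0.71 (SE 0.77). H2AC17 shares 80.7% of its 150-base windows with other histone transcripts, and its row overlaps H3C12 on the same strand by 408 bases.

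H3 and H4 form the centre of the nucleosome core. Of 12 H3 genes, 7 were tested and 1 was called higher, a share near the 12.2% of all tested genes. H3C10 (chr6:27810051-27811300, plus strand) was at 1.31, 1.23 and 1.22 FPKM in DMSO and 2.72, 2.48 and 2.36 FPKM in WD6305, a log2 fold change of 1.03 (SE 0.17, edgeR adjusted p = 0.00303). Its groups did not overlap. The near-identical copies H3C14 (1.71, 1.26 and 1.09 against 0.80, 1.38 and 0.78 FPKM) and H3C15 (1.65, 1.26 and 1.06 against 0.79, 1.43 and 0.78 FPKM) overlapped between the groups. Summed, they had a log2 fold change of -0.40 (SE 0.32, edgeR adjusted p = 0.425). H3C2, H3C7, H3C11 and H3C12 had 4 to 35 counts per library and log2 fold changes of -0.06 (SE 0.42), -0.21 (SE 0.53), -0.21 (SE 0.77) and 0.67 (SE 0.62).

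Of 13 H4 genes, 9 were tested and 1 was called higher, a share also near the 12.2% of all tested genes. H4C8 (chr6:26277609-26285638, minus strand) was at 1.15, 1.29 and 1.29 FPKM in DMSO and 2.24, 2.34 and 2.29 FPKM in WD6305, a log2 fold change of 0.90 (SE 0.14, edgeR adjusted p = 0.00190), again with no overlap. H4C12 was also separated upward, at 3.07, 4.19 and 2.40 FPKM and then 5.92, 5.30 and 4.43 FPKM, but did not pass (log2 fold change 0.72, SE 0.27, edgeR adjusted p = 0.0862). It passed without DMSO 2, in both limma fits and among genes with a mean of at least 1 FPKM, at adjusted p = 0.0423 to 0.0494. All of its 150-base windows also occur in another histone transcript.

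H4C14 was the only tested member with every WD6305 library below every DMSO library. It was at 2.60, 2.46 and 2.41 FPKM in DMSO and 2.01, 1.97 and 1.86 FPKM in WD6305 (log2 fold change -0.33, SE 0.13, edgeR adjusted p = 0.105). Its near-identical copy H4C15 was at 2.64, 2.48 and 2.39 FPKM and then 2.02, 2.39 and 1.79 FPKM, with the top WD6305 library level with the lowest DMSO library (-0.25, SE 0.15). Summed, the copies had 746, 658 and 644 counts in DMSO and 523, 602 and 495 counts in WD6305 (log2 fold change -0.29, SE 0.11, edgeR adjusted p = 0.0849). In limma on log2 FPKM, H4C14 was called lower with either pseudocount (adjusted p = 0.0282 and 0.0257). H4C11 was at 3.17, 2.50 and 1.86 FPKM in DMSO and 2.23, 2.11 and 2.01 FPKM in WD6305 (log2 fold change -0.22, SE 0.30). H4C9 was at 0.96, 0.86 and 1.24 FPKM and then 0.75, 0.86 and 1.49 FPKM (0.03, SE 0.45). H4C3, H4C4 and H4C5 had at most 50 counts in any library and log2 fold changes of 1.31 (SE 1.33), 1.01 (SE 0.82) and 1.00 (SE 0.52).

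The 19 members that were not tested had between 0 and 33 counts in each library. H4C13 was at 0 in all 6. Together they made up 0.245% to 0.491% of the members' counts, and their summed level was 0.786 ± 0.240 CPM in DMSO and 0.976 ± 0.0669 CPM in WD6305, with overlapping groups.

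Precision followed the number of counts. The standard errors of the 13 called genes ran from 0.06 to 0.24, and those of the 29 genes not called from 0.13 to 1.33. The lowest log2 fold change among called genes was 0.58, and for several genes with few counts the standard error was as large or larger. For H4C14, H4C15 and H2AC17, whose log2 fold changes were at or below 0, the standard errors were smaller, at 0.13, 0.15 and 0.21.

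The genes sit in 4 blocks, and calls occurred in each. The block at chr1:149782689-149887965 holds 11 members, of which 9 were tested and 3 called higher. The largest, at chr6:26017032-26285638, holds 29 members with 15 tested and 5 called. The block at chr6:27125897-27147562 holds 5, all tested, with 2 called, and that at chr6:27807479-27893891 holds 16, with 13 tested and 3 called. The near-identical H2AC18 and H2AC19 are among the 3 calls on chromosome 1. Over all tested genes, 12.2% were called higher. The mean summed CPM in WD6305 was 1.60, 1.67, 1.67 and 1.59 times the DMSO mean in these 4 blocks, and in each block the groups did not overlap. The median log2 fold changes of the tested members were -0.06, 0.74, 0.03 and 0.27, so a block sum need not reflect its typical member. In the block of 5, H2BC12 alone averaged 130 of 142.5 CPM in WD6305.

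The calls were set beside the annotated transcript ends as a description, with no test of the difference. As background for each share in this paragraph, 12.2% of all tested genes were called higher. Of the 21 members with at least 1 GENCODE 29 transcript that has AATAAA or ATTAAA within its last 40 bases, 20 were tested and 10 called higher, the near-identical H2AC18 and H2AC19 among them. The match was not required to follow the stem-loop. In H4C11, which was not called, the transcript ends 6 bases after the stem-loop, so its match lies before it. Of the 40 members without such a transcript, 22 were tested and 3 called higher: H2BC12, H1-2 and H2BC17. For 14 of these 22, the 3 called genes included, the models are coding sequence alone and show no 3′ end, which leaves 8 tested members with a readable end and no signal. Among the 20 members in which the pattern search found a stem-loop, 18 were tested and 7 called. By the span of the row in the deposited table, 8 of 13 tested members of at least 1000 bases were called, against 5 of 29 shorter members. The part of count depth in these shares was not tested. A list of 14 members known from earlier work to be read also as polyadenylated messages had 12 tested, 9 called higher and 0 lower, with a median log2 fold change of 0.79. That list was drawn up with results of these data known and is no independent evidence.

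Many H2A and H2B genes lie head to head, so that their start sites face each other across a short shared promoter region. There were 10 such H2A and H2B neighbours with a gap of at most 500 bases, and in 7 both genes were tested. For each, the log2 of the H2B to H2A ratio was computed in CPM; its level depends on the gene lengths, but its change between groups does not. H2BC17 and H2AC17 had ratios of -1.04, -1.24 and -1.30 in DMSO and 0.39, 0.30 and 0.15 in WD6305, a difference of 1.48. H2BC11 and H2AC11 had 1.75, 1.48 and 1.96 and then 3.04, 2.50 and 2.50, a difference of 0.95. In both, the WD6305 libraries all lay above the DMSO libraries.

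The ratio of H2BC21 to H2AC20 went from 2.62, 3.08 and 2.95 to 3.31, 4.16 and 3.80, a difference of 0.87. That of H2BC12 to H2AC12 went from 8.32, 8.12 and 7.58 to 10.4, 8.89 and 10.5, a difference of 1.91, with H2AC12 at 18, 18 and 26 counts in DMSO and only 6, 20 and 6 in WD6305. These neighbours too did not overlap between groups. By exact permutation (two-sided) each of the 4 had p = 0.1, which is the lowest value possible with 3 libraries per group, or 0.175 after Benjamini-Hochberg adjustment over the 7.

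The other 3 overlapped. H2BC4 and H2AC6, which were both called higher, kept nearly the same ratio: -2.75, -2.51 and -2.83 in DMSO against -2.95, -2.63 and -2.67 in WD6305, a difference of -0.05 (exact permutation p = 0.8). H2BC15 and H2AC15 differed by 0.92 (exact permutation p = 0.3) and H2BC13 and H2AC13 by 0.03 (exact permutation p = 0.9). Over all 1273 divergent neighbours of tested genes with a gap of the same size, 32.6% had ratios that did not overlap between the groups in either direction.

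**Figure D4:**
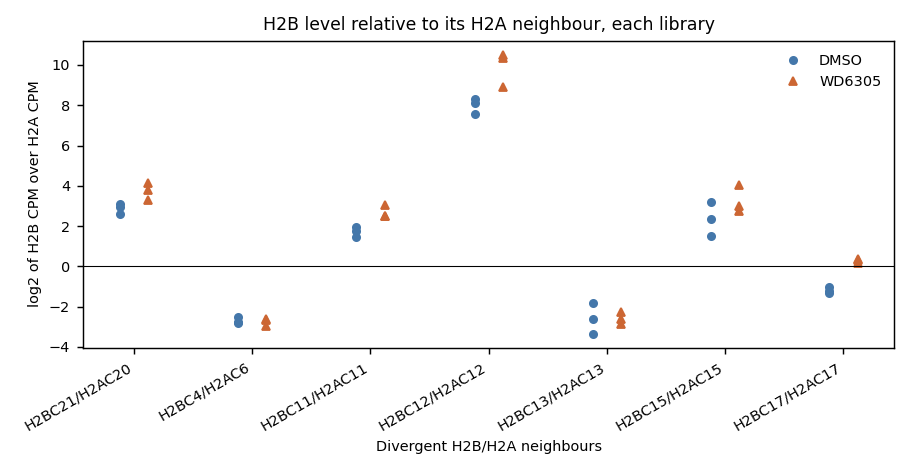
Log2 ratio of H2B CPM to H2A CPM for the 7 head-to-head neighbours in which both genes were tested, with each library as a point. In 4 of them the WD6305 points all lie above the DMSO points, and H2BC4/H2AC6, where both genes rose, shows no shift.

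The regions between 3 of these neighbours are printed because they are shared by genes of which only the H2B was called (H2BC17, H2BC12) or both were called (H2BC4 with H2AC6). They come from the RefSeq promoter table (GRCh38.p14), are shown 5′ to 3′ in the reading direction of the H2B gene, and run from the base after the start of the H2A gene to the base before the H2B gene. Capitals mark matches on either strand to the octamer ATTTGCAT, to CCAAT and to TATAAA.
H2BC17 and H2AC17, chr6:27893186-27893424, plus strand: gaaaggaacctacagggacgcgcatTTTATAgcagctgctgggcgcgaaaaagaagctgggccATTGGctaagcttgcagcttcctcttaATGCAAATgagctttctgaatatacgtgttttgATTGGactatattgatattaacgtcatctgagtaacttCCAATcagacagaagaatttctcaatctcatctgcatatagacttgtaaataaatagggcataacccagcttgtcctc
H2BC12 and H2AC12, chr6:27146856-27147105, minus strand: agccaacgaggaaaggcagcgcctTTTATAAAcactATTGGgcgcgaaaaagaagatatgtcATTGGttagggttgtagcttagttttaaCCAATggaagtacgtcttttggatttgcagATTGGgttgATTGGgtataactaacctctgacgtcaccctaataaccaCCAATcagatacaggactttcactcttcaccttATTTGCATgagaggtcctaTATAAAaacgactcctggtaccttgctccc
H2BC4 and H2AC6, chr6:26123927-26124144, minus strand: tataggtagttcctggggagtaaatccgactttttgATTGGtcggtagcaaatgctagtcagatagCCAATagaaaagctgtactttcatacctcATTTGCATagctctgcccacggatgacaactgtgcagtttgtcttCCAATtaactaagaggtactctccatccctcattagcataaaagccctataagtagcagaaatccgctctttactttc
The octamer, the known site of POU2F1 (Oct-1) in H2B promoters, was found in 8 of the 10 gaps, these 3 included. In the H2BC17 gap it reads ATGCAAAT on the strand shown, the reverse complement, and in the gaps of H2BC12 and H2BC4 it reads ATTTGCAT.

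Over the 250 bases before the start site, 56 of the 61 members had an entry among 35116 promoters in the table. The octamer was present on either strand in 39.3% of the members' promoters and in 1.63% of all promoters. It was found in 10 of 14 H2A and 12 of 15 H2B promoters and in 0 of the H1, H3 and H4 promoters. Among called members 6 of 13 had it, and among tested members not called 9 of 25. Head-to-head neighbours share the region between them, so the same octamer can be counted for both genes. This was so for H2BC17, which was called, and H2AC17, which was not. CCAAT was present in 83.9% of the members' promoters against 32.0% of all, and TATAAA in 71.4% against 10.7%. These are matches of letters, not measured binding sites, and matches to TATAAA on opposite strands can share bases.

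Other histone genes and the factors around them were measured in the same fit, from lists drawn up with results of these data known. The background for each list is the share of all tested genes, with 12.2% called higher and 11.2% lower. Replacement histones and other variants are encoded outside the naming rule. Most, such as H2AZ1 and H3-3B, come from ordinary polyadenylated messages, whereas H2AX can also end at a stem-loop. Of 18 in the table, 14 were tested, 3 were called higher and 2 lower, with a median log2 fold change of 0.01, and their summed level was lower in WD6305 (2302 to 2458 CPM against 2487 to 2715 CPM). H2AJ rose from 11.5 ± 1.65 to 20.3 ± 1.81 CPM (log2 fold change 0.82, edgeR adjusted p = 0.00154), and H1-10, a linker histone, rose from 25.5 ± 3.39 to 36.3 ± 3.53 CPM (0.51, edgeR adjusted p = 0.0122; 0.0575 without WD6305 3). H2AZ2 rose by 0.18 (edgeR adjusted p = 0.0328), a call lost in 9 of 17 alternative settings, among them those without DMSO 1, DMSO 2, WD6305 2 or WD6305 3 (adjusted p = 0.0525 to 0.129). H2AX, the variant phosphorylated at DNA breaks, fell by 0.39 on the log2 scale, and H3-3B, which encodes H3.3, fell by 0.22, a call lost in 6 settings, among them those without DMSO 1, WD6305 1 or WD6305 3 (adjusted p up to 0.104). H2AZ1 had a log2 fold change of -0.14 (SE 0.09) and did not pass.

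Of the 33 tested genes for histone transcription, 3′ processing and decay, 4 were called higher and 8 lower, with a median log2 fold change of 0.09. The shares over all tested genes were 12.2% higher and 11.2% lower. MIF4GD (SLIP1), which links SLBP to translation, rose by 1.16 on the log2 scale, with 22.5 ± 2.28 CPM in DMSO and 50.3 ± 1.80 CPM in WD6305 (SE 0.09, edgeR adjusted p = 8.57e-05). TUT7, a uridylyltransferase that marks RNA for decay, rose from 26.7 ± 5.50 to 45.1 ± 0.677 CPM (0.75, SE 0.13, edgeR adjusted p = 0.00345). LSM10 and LSM11, the U7 snRNP proteins that help cut histone pre-mRNA, rose by 0.29 and 0.35. The LSM10 call was lost without DMSO 1, WD6305 2 or WD6305 3 (adjusted p = 0.0501 to 0.0719), and the LSM11 call in 9 of 17 settings, among them those without DMSO 1, DMSO 2, WD6305 1 or WD6305 2 (adjusted p = 0.0602 to 0.111). CSTF3, a cleavage stimulation factor, fell by 0.59 on the log2 scale, NELFE by 0.32 and SRRT (ARS2) by 0.25. UPF1, needed for histone mRNA decay, fell by 0.24, NCBP1, of the cap-binding complex, by 0.23 and SYMPK, the cleavage complex scaffold, by 0.16. The NCBP1 call was lost without WD6305 2 (adjusted p = 0.0539) and the SYMPK call without DMSO 1, DMSO 2, WD6305 2 or WD6305 3 (adjusted p = 0.0517 to 0.0996). SLBP was at 99.2 ± 1.28 CPM in DMSO and 92.1 ± 4.57 CPM in WD6305 and did not pass (log2 fold change -0.11, SE 0.05, edgeR adjusted p = 0.172). NPAT was at 16.6 ± 2.22 and 19.8 ± 0.908 CPM and did not pass (0.25, SE 0.10, edgeR adjusted p = 0.121), but passed without DMSO 3 (adjusted p = 0.0148) and in the 4-library comparison (adjusted p = 0.0498).

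Genes of the proteins that carry and deposit histones were mostly not called. Of 28 tested genes for chaperones and nuclear import, 20 were not called, 1 was called higher and 7 lower, with a median log2 fold change of -0.02. Among all tested genes, 12.2% were called higher and 11.2% lower. IPO4, an importin for H3 and H4, was at 126, 139 and 130 CPM in DMSO and 51.5, 75.3 and 72.3 CPM in WD6305 (log2 fold change -0.99, SE 0.13, edgeR adjusted p = 0.000846). SSRP1, a subunit of the FACT complex, and NPM1, nucleophosmin, each fell by 0.53 on the log2 scale. IPO5 fell by 0.33, NASP, which stores H3 and H4, by 0.24 and RBBP7 by 0.23. UBN2, of the HIRA complex, rose by 0.39, a call lost in 7 of 17 alternative settings, among them those without DMSO 1, DMSO 2, WD6305 1 or WD6305 3 (adjusted p = 0.0862 to 0.0904).

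The S-phase list, whose genes share the cell-cycle timing of histone synthesis, had 38 genes tested. Of these, 4 were called higher, 13 lower and 21 not called, with a median log2 fold change of -0.07. Calls over all tested genes were 12.2% higher and 11.2% lower. Its summed level was 5191 to 5221 CPM in DMSO and 4752 to 4864 CPM in WD6305, with no overlap. The part of the cell cycle in the histone results was not tested. RRM2, a subunit of ribonucleotide reductase, was at 217 ± 6.31 CPM and then 163 ± 6.64 CPM (log2 fold change -0.41, SE 0.05, edgeR adjusted p = 0.000471). CDC6, which loads the replicative helicase, fell by 0.45 on the log2 scale, RFC4 by 0.37, UHRF1 by 0.34, TYMS by 0.32 and MCM7 by 0.22. E2F8, GINS3 and FEN1 rose by 0.45, 0.31 and 0.21. The MCM7 call was lost without WD6305 3 (adjusted p = 0.0533), and the GINS3 call without DMSO 2 or any single WD6305 library (adjusted p = 0.0510 to 0.0795).

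A list of RNAs that carry no poly(A) tail was measured in the same libraries. Of 33 small nuclear, nucleolar and related RNAs in the table, 7 were tested, 0 were called higher and 1 was called lower in edgeR, and 0 had a positive change with an unadjusted p under 0.05. Their summed level was 4.27 to 6.15 CPM in DMSO and 3.97 to 5.12 CPM in WD6305, and the groups overlapped. Among all tested genes, 12.2% were called higher and 11.2% lower. The standard errors of the 7 tested RNAs ran from 0.35 to 0.97, so a rise of 0.59, the histone median, could have gone uncalled. The other 26 were too low to test, and whether untailed histone RNA was carried over into the libraries was not tested. SNORD17 was the gene called lower, at 0.96, 0.97 and 2.37 FPKM in DMSO and 0.00, 0.05 and 0.17 FPKM in WD6305, a call lost without DMSO 3 or WD6305 2 (adjusted p = 0.0653 to 0.0692) and in the 4-library comparison. With 18, 17 and 40 counts in DMSO and 0, 1 and 3 counts in WD6305, it passed the filter only through the DMSO group, so it had to differ.

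**Figure D5:**
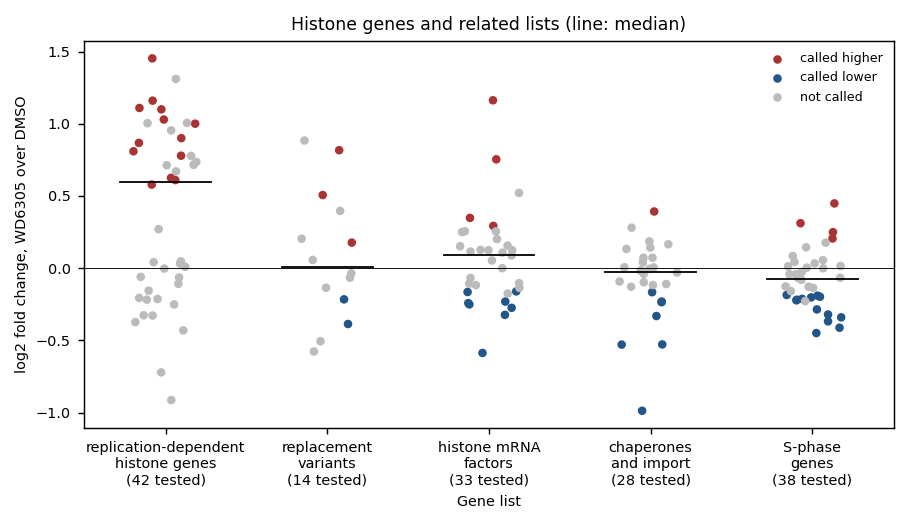
Log2 fold changes of the tested genes in the histone set and in 4 related lists, with called genes in colour and the median as a line. The histone genes have a median of 0.59 and no gene called lower. The S-phase list has a median of -0.07 with 13 genes called lower, 4 higher and 21 not called.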

How the data were processed

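Poly(A) RNA of 3 DMSO and 3 WD6305 samples was sequenced as paired ends after preparation with a dUTP second strand, per the labels' protocols. The submitters' processing notes name fastp, HISAT2, StringTie and edgeR with GRCh38; their versions and settings, and any use of strand in counting, were not given in the sources used here. An estimated count and an FPKM value (scaled for length and depth) were deposited by the authors per gene and library, per the file headers. The deposited counts are whole, so rounding left them as they were. Column names placed each library in its group by its label, and 0 columns belonged to other samples.

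Genes were kept with filterByExpr (18138 of 31853), scaled by TMM and compared two-sided by quasi-likelihood in edgeR 4.0.16 (R 4.3.3), with Benjamini-Hochberg adjustment over all tested genes at 0.05. CPM is the count over the TMM-scaled library size. Levels are mean ± SD, and SE is the absolute log2 fold change over the square root of the F statistic. The biological coefficient of variation was 20.8%. limma 3.58.1 on log2 FPKM (pseudocounts 1 and 0.1) and DESeq2 1.42.0 were alternatives, with other scalings and filters, counts divided by 4, a replicate block and left-out libraries. Summing near-identical copies was added after seeing the data. The fit was tested on simulated data. Replicates of a group differed beyond sampling noise (chi-square per degree of freedom 3.77 to 10.4 on counts divided by 4).

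Members and lists were chosen with earlier results of these data known. Called members and those with a mean of at least 1 FPKM got all 6 values, and each related list up to 6 called genes per direction by adjusted p, with SLBP, NPAT, METTL3, H2AZ1, H2AX and H3-3B named regardless. A few genes that met this rule are not reported here. T-cell markers were not analysed here. Transcripts were matched for 61 members in GENCODE 29 (57 by identifier, 4 by older symbol), and coordinates of genes come from the deposited table. Amino acid sequences were not used here.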

Additional observations from a re-analysis of the deposited data

How the results depend on the processing

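The 13 upward calls among histone genes were all kept under 14 of 17 alternatives, and the count ranged from 12 to 15. H2BC11 was lost without DMSO 3 and WD6305 1 together (adjusted p = 0.0539), H2BC15 was not tested with a mean of at least 1 FPKM, and H2AC19 merged into H2AC18 when copies were summed. H4C14 made the count of lower calls 1 in limma with either pseudocount. The median over members lay between 0.10 (limma, pseudocount 1) and 0.62. Leaving out each library in turn gave 13 to 14 higher and 0 to 0 lower members, 1446 to 2563 higher and 1310 to 2077 lower genes among all tested, and 35 to 62 called genes in the related lists. The lowest of the all-gene and list counts came without WD6305 3 and the highest without DMSO 3; the cause was not tested. The replicate numbers did not pair the libraries (correlations of same-numbered libraries -0.214, 0.0528 and -0.122), and each WD6305 library correlated best with another number; with the replicate block 13 members were called higher and all 13 calls were kept. The sign of genes near 0 that were not called turned under some settings. Leaving out each library gave H4C9 -0.33 to 0.21, H2AC17 -0.13 to 0.12, H2AC13 -0.082 to 0.20, H2AC20 -0.32 to 0.26, H2AC15 -0.073 to 0.60 and H2BC9 -0.33 to 0.18. H4C9 was also -0.0036 and -0.024 in limma and -0.015 with the block, and H2AC17 was 0.0075 with the block. In 4 libraries, H2AC17 was 0.059 and H2AC13 -0.0043. The number of counts limits what can be said of the members not called.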

Other observations

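The chromosome 1 block holds rows that the naming rule leaves out, and they were chosen here after their values were seen. Between the copies H2AC18 and H2AC19 lie 2 rows named as H2B pseudogenes, which overlap each other on opposite strands. H2BC19P (chr1:149842875-149846486, plus strand) had 292, 343 and 309 counts in DMSO and 505, 473 and 477 counts in WD6305, so the groups did not overlap (1.59-fold, edgeR adjusted p = 0.00692). H2BC20P (chr1:149844498-149850937, minus strand) had 527, 523 and 619 counts and then 819, 837 and 992 counts (1.64-fold, edgeR adjusted p = 0.00292). Without knowledge of how strand was used, reads of these rows cannot be told apart. Another H2A and H2B neighbourhood, on chromosome 1 outside the large block, showed no call. H2AW had 288, 257 and 224 counts in DMSO and 273, 218 and 257 counts in WD6305 (edgeR adjusted p = 0.966), and H2BU1 had 10, 12 and 8 and then 13, 16 and 25 counts (edgeR adjusted p = 0.346). H4-16, an H4 gene on chromosome 12, had 23, 20 and 4 counts in DMSO and 4, 39 and 2 counts in WD6305, with wide spread in both groups.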
